A study of Homo sapiens with 2 samples.

Results

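The MORC proteins are nuclear ATPases of the GHKL class, and the human genes examined here are MORC1, MORC2, MORC3 and MORC4 together with SMCHD1, a more distant relative whose ATPase domain is of the same class. The rows of the expected-count table whose Ensembl identifiers belong to these 5 genes were taken, 5 of 57820 in all. MORC4 was chosen by its measured ratio of counts between the 2 libraries, which was already known to be among the largest in the table, and the other 4 were chosen as its relatives. The values of MORC4 are therefore a description, and no test was made of them.

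RNA was measured in 1 library from a CREB1 knockout clone (KO-CREB1) and 1 library from CREB1 wild-type cells, both of HCT116, a human colorectal carcinoma line. CREB1 encodes a leucine zipper protein that switches on genes with a cAMP response element. According to the treatment protocol in the labels, cells received the PX461 plasmid with nickase Cas9 and guides to CREB1, and KO-CREB1 is a clone of 1 cell in which CREB1 was found to be absent. The wild-type cells were HCT116 themselves, and both were kept in DMEM with fetal bovine serum and antibiotics. With 1 library per genotype, a difference between the genotypes cannot be told apart from one between clones, cultures or library preparations.

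MORC proteins dimerise through the ATPase domain when they bind ATP, and they act on chromatin, mostly in gene silencing and compaction. MORC1 through MORC4 also carry a CW zinc finger, a small domain that in MORC3 and MORC4 binds histone H3 methylated on lysine 4. MORC2 works with the HUSH complex in silencing of transposons and transgenes, MORC3 gathers in PML nuclear bodies, and MORC1 is known in mice for silencing transposons in the male germline. SMCHD1 has the hinge domain of SMC proteins and takes part in X inactivation and in silencing of the DUX4 array. MORC4 is X-linked, and less is known of its function.

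The depth and the identity of the libraries were checked first. The expected counts summed to 31178309 in the knockout library and 34511074 in the wild-type library after rounding. CREB1 had 499 counts in the knockout library and 614 in the wild-type library, or 15.6 and 18.2 CPM, a log2 ratio of -0.23 with a 95% counting interval of -0.40 to -0.05. With total-count scaling the interval was -0.33 to 0.02 and included no difference. A total per gene does not show the edited sequence or the protein, so it does not settle the genotype label. CPM values are counts divided by library size after TMM scaling, and the 95% intervals of ratios are exact (Clopper-Pearson) and cover counting error only. Of 7 markers of colorectal epithelium, 5 were expressed, and the list summed to 3511 CPM in the knockout library and 4008 CPM in the wild-type library. The other 2, VIL1 (9 and 12 counts) and CDH17 (1 and 2 counts), were near 0, so the list does not settle a colorectal origin. The blood cell markers summed to 0.0938 and 0.981 CPM, the fibroblast markers to 2.88 and 2.62 CPM and the endothelial markers to 0.532 and 0.505 CPM. PTPRC, CD3E, COL1A2 and CDH5 were at 0 in both libraries.

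The promoter windows of the members are shown because CREB1 acts through a short DNA sequence. All 5 matched in RefSeq (GRCh38.p14), each as 300 bases from 250 before the start of the gene to 50 after it. The windows of MORC4, the member that differed, and of MORC2 and MORC1, which hold the half-site of the cAMP response element, are printed 5′ to 3′ along the gene. They lie at chrX:107000163-107000462, chr22:30968725-30969024 and chr3:109118085-109118384, all on the minus strand. Capitals mark each match to the motifs searched.
MORC4: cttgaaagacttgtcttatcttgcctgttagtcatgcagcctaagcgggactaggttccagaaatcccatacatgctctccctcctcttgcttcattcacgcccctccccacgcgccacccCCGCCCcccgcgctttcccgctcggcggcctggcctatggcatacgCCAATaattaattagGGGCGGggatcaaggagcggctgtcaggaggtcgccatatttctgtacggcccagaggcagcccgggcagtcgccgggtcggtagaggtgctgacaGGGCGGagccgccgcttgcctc
MORC2: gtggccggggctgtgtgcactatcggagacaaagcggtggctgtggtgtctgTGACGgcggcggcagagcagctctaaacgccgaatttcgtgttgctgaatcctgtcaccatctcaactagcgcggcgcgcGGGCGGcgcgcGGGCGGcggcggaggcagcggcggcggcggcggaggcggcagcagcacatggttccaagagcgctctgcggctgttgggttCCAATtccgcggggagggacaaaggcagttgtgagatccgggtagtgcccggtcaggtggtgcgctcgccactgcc
MORC1: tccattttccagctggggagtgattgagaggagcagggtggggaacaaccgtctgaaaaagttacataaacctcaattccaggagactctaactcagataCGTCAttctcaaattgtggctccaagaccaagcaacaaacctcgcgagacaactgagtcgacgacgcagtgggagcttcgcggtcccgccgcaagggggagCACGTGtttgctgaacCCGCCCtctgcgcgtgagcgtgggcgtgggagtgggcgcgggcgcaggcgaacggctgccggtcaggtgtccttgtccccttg

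Motifs were searched on both strands. The full cAMP response element (TGACGTCA) was in none of the 5 windows, and 1.85% of 35116 RefSeq promoter windows of the same length hold it. Its half-site (TGACG, which is also contained in the full element) was in 2 of the 5, MORC2 at 198 bases before the start (-198) and MORC1 at -150, against 24.6% of all windows. It was not in the MORC4 window, and positions give the first base of a match counted from the start. The GC box (GGGCGG) was in all 5 windows, against 45.0% of all windows, and the MORC4 window holds it at -129, -68 and 29. The CCAAT box (CCAAT) was in 3 of 5, at -83 in MORC4, -26 in MORC2 and -88 in MORC3, against 34.6% of all windows. The E-box CACGTG was in the MORC1 window (7.26% of all windows), and TATAAA was in none of the 5 (11.5%). The G and C content was 61.7% in MORC4, 67.7% in MORC2, 67.3% in MORC3, 58.7% in MORC1 and 77.3% in SMCHD1, against a median of 58.7% over all windows. A match is a run of letters and not a site shown to be bound, and these windows hold 1 start per gene.

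MORC4 was the member that differed by more than 2-fold between the libraries. MORC4 (ENSG00000133131.10, chromosome X) had 3315 expected counts in the knockout library and 928 in the wild-type library. This is 103.7 CPM (95% Poisson interval 100.2 to 107.3) in the knockout library and 27.6 CPM (25.8 to 29.4) in the wild-type library. The 2 intervals lie far apart, and the knockout library held 2387 more MORC4 counts than the wild-type library although its total was the smaller. The log2 ratio of knockout over wild-type was 1.91 (interval 1.80 to 2.02), or 3.76-fold (3.49 to 4.05). A gene was called higher or lower when its mean CPM was at least 1, its ratio at least 2-fold and its interval clear of no difference. By this rule 1.28% of 12886 expressed genes were called higher, 1.64% lower and 2.92% in either direction, and MORC4 was 1 of 22 expressed genes whose ratio was as high or higher. In a bulk sample, more cells with MORC4 and more MORC4 RNA per cell cannot be told apart.

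The 3 other detected members lay close to no difference. SMCHD1 (ENSG00000101596.10, chromosome 18) had 2386 counts in the knockout library and 2206 in the wild-type library, or 74.6 and 65.6 CPM. Its log2 ratio was 0.19 (0.10 to 0.27), a 1.14-fold difference whose interval excluded no difference. That is common at this depth, since 51.9% of expressed genes had such an interval and 53.4% lay at least as far from 0. MORC3 (ENSG00000159256.8, chromosome 21) had 547 and 533 counts, or 17.1 CPM in the knockout library and 15.8 CPM in the wild-type library, with a log2 ratio of 0.11 (-0.06 to 0.29). MORC2 (ENSG00000133422.8, chromosome 22) had 315 and 300 counts, or 9.85 CPM in the knockout library and 8.92 CPM in the wild-type library, with a log2 ratio of 0.14 (-0.09 to 0.38). For both, the interval included no difference with TMM scaling. With total-count scaling the interval of MORC3 was 0.0092 to 0.36 and no longer did so. MORC1 (ENSG00000114487.5, chromosome 3) had 0 counts in both libraries. At the limit of 3 counts this allows up to 0.0938 CPM in the knockout library and 0.0892 CPM in the wild-type library, and no ratio can be given. Of the 5 members, 4 passed the mean CPM filter and MORC1 did not.

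**Figure D1:**
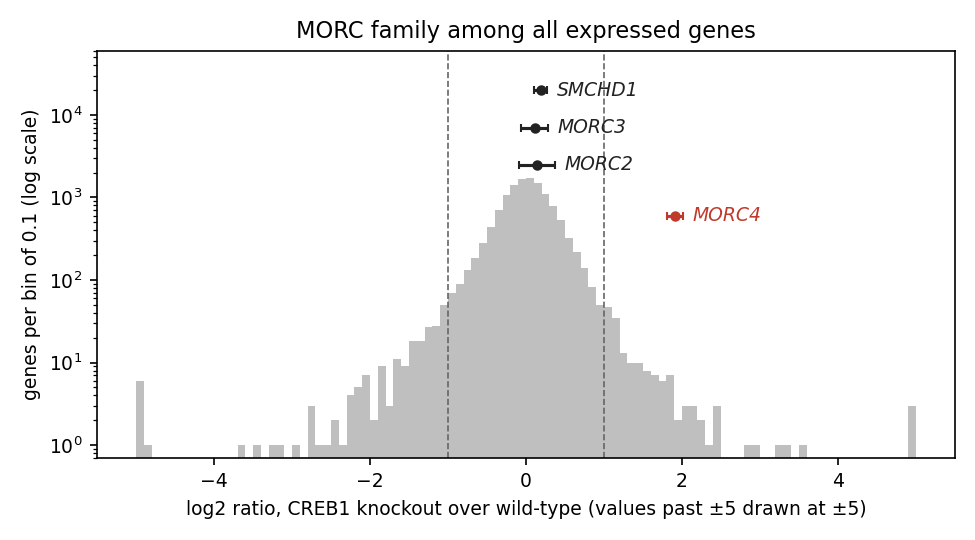
Log2 ratios of knockout over wild-type for all 12886 expressed genes as a histogram (log vertical axis), with the 4 detected members drawn as points at arbitrary heights and horizontal bars for their 95% counting intervals. Dashed lines mark 2-fold, and MORC4 at 1.91 lies beyond the line while SMCHD1, MORC2 and MORC3 lie between 0.11 and 0.19.

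Levels of different genes were compared per length, as counts per kilobase of the longest annotated transcript over their sum across all genes with a length, on the scale of TPM. This scale does not use TMM, so its ratios differ slightly from those above. In the knockout library the order was MORC4 at 41.6, SMCHD1 at 13.0, MORC3 at 6.20 and MORC2 at 2.93. In the wild-type library MORC4 at 10.5 (9.85 to 11.2) and SMCHD1 at 10.9 (10.4 to 11.3) did not differ beyond counting error, followed by MORC3 at 5.45 and MORC2 at 2.51. In the wild-type library SMCHD1 lay above MORC4 with each length used, but whether their intervals overlapped depended on the length. With all exons merged, wild-type MORC4 was at 7.31 (6.84 to 7.79) and SMCHD1 at 8.46 (8.11 to 8.82), and the intervals did not overlap. The remaining neighbours in either order had intervals that did not overlap. MORC1 was at 0 in both, where 3 counts would be 0.0384 in the knockout library and 0.0346 in the wild-type library. The level of MORC4 lay above that of 90.3% of expressed genes in the knockout library and 66.2% in the wild-type library. SMCHD1, the larger part of the remainder, lay above 70.2% and 67.0%.

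The composition of the family differed accordingly. The levels per length of the 5 genes summed to 63.7 in the knockout library and 29.3 in the wild-type library. MORC4 made up 65.3% of that sum in the knockout library (counting interval of MORC4 alone 64.5% to 66.0%) and 35.8% in the wild-type library (34.3% to 37.3%). SMCHD1 made up 20.4% and 37.0%, MORC3 9.72% and 18.6%, and MORC2 4.59% and 8.57%. Without MORC4 the sum was 22.1 in the knockout library and 18.8 in the wild-type library.

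**Figure D2:**
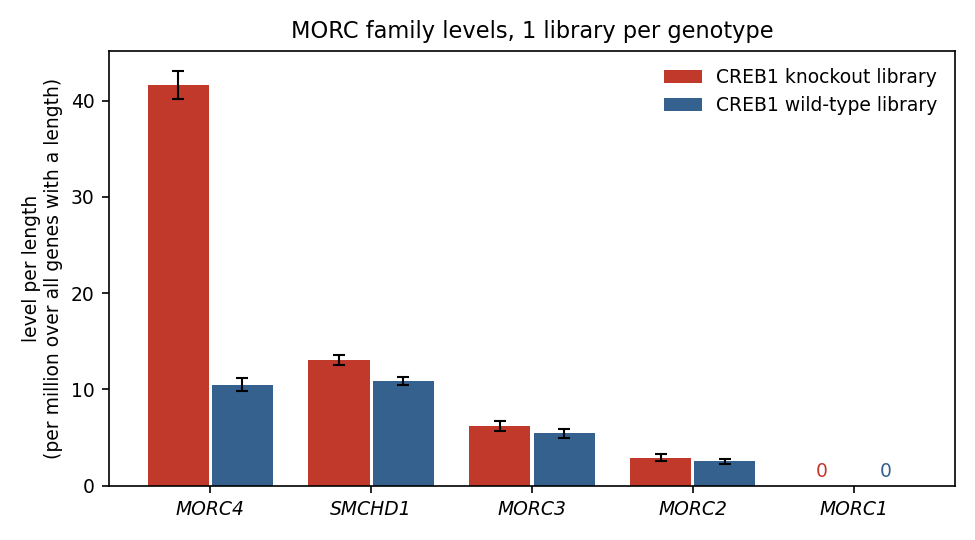
Level per length (counts per kilobase of the longest transcript, on the scale of TPM) of the 5 genes in the knockout library (red, left bar) and the wild-type library (blue, right bar), with 95% Poisson intervals. MORC4 stands at 41.6 in the knockout library and 10.5 in the wild-type library, the other detected genes have bars of similar height in both, and MORC1 is at 0.

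The reads behind these values were checked for sharing with other genes. RSEM divides reads that match several genes between them, which usually leaves fractional counts, and the counts of all 5 members were whole numbers in both libraries. Of 3785 distinct stretches of 50 bases in the longest MORC4 transcript, 0 occurred on either strand in a transcript of another gene. MORC1 likewise shared 0 of 3715, SMCHD1 2 of 8772 and MORC3 66 of 4197. MORC2 shared 1518 of 5132 (29.6%), all with its antisense gene MORC2-AS1, which had 0 counts in the knockout library and 4 in the wild-type library. The sources used here do not state the strand setting of the counting, and without strand, reads of MORC2 and MORC2-AS1 could not be told apart. TUG1, a long noncoding RNA transcribed away from MORC2 and starting within 1000 bases of it, had 618 counts in the knockout library and 424 in the wild-type library (log2 ratio 0.62, 0.44 to 0.80). It was named after its value was seen.

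The genes beside MORC4 on the X chromosome differed as well, in both directions. In GENCODE 29 order, the 5 nearest expressed protein-coding genes on either side were compared, and 3 of the 10 were called, 1 higher and 2 lower. Of 389 expressed X-linked genes 3.08% were called, a share that includes MORC4 and these 3 genes. The 3 called neighbours had a mean CPM of 2.39 to 3.95, where calls were more common. On the X chromosome 12 of 389 expressed genes were called, against 3 of 276 with a mean CPM of at least 5. The share of 3.08% is therefore low as a background for these 3 genes. CLDN2, which encodes a claudin that forms cation-permeable tight junctions, had 128 counts in the knockout library and 26 in the wild-type library. Its log2 ratio was 2.35 (1.76 to 3.04), or 5.10-fold. At 0.773 CPM in the wild-type library, CLDN2 passed the mean CPM filter only through the knockout library. TBC1D8B, a gene of the Rab GTPase-activating TBC family, had 54 counts in the knockout library and 162 in the wild-type library, a log2 ratio of -1.50 (-1.98 to -1.06). RNF128, a membrane-bound ubiquitin ligase, had 79 and 183 counts and a log2 ratio of -1.13 (-1.54 to -0.75). RNF128, TBC1D8B, MORC4 and CLDN2 are consecutive among the expressed protein-coding genes.

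Farther out the ratios were smaller. On the side of TBC1D8B, CXorf57 (123 and 161 counts) had a log2 ratio of -0.31, MUM1L1 (302 and 175 counts) 0.86 and FAM199X (1294 and 1371 counts) -0.01. On the other side, RBM41, an RNA-binding protein gene, had a log2 ratio of 0.42 (264 and 207 counts) and NUP62CL 0.68 (217 and 142 counts). PRPS1, an enzyme of nucleotide synthesis, had -0.24 (1133 and 1412 counts) and TSC22D3, a glucocorticoid-induced regulator, 0.03 (206 and 213 counts). The median over the 10 neighbours was 0.0077, against 0.04 over all expressed X-linked genes and 0.0078 over all expressed genes. RIPPLY1, between TBC1D8B and CLDN2, had 1 count in each library. GENCODE 29 has a MORC4 transcript that runs across CLDN2 and RIPPLY1 and into the span of TBC1D8B, but the exons of MORC4 share 0 bases with those of any of the 3. RefSeq places MORC4 outside all of them, with CLDN2 on the side of TBC1D8B.

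**Figure D3:**
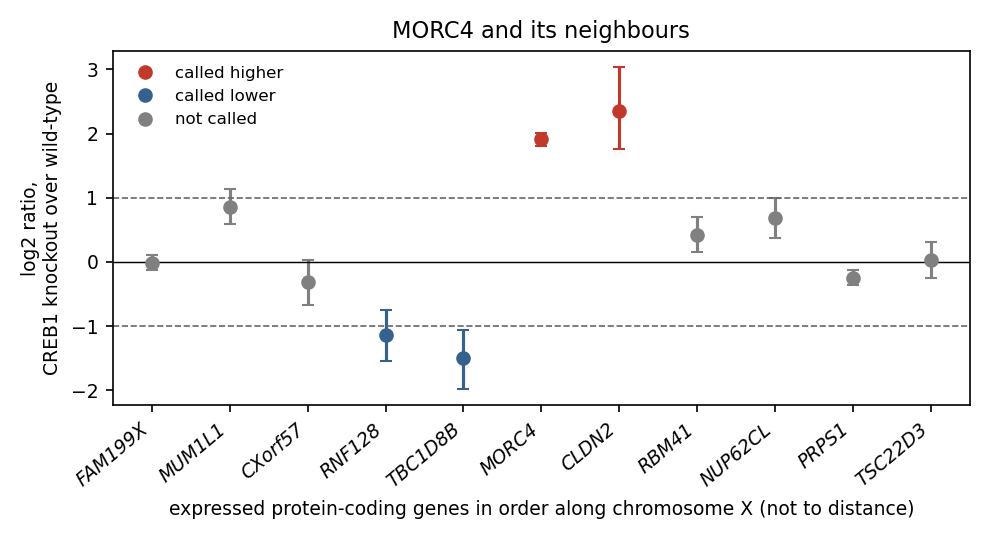
Log2 ratios of knockout over wild-type with 95% counting intervals for MORC4 and the 10 nearest expressed protein-coding genes, in GENCODE 29 order along chromosome X and not spaced by distance; dashed lines mark 2-fold. MORC4 (1.91) and CLDN2 (2.35) are called higher, RNF128 (-1.13) and TBC1D8B (-1.50) lower, and the other 7 genes are not called.

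Genes that work with the family or share a domain with it were compared as lists. Their counts stand beside 2.92% of expressed genes called in either direction and a median log2 ratio of 0.0078 over all expressed genes. Of the 7 human genes with a CW zinc finger, 4 were expressed, namely MORC2, MORC3, MORC4 and KDM1B. Only MORC4 was called, and since it was chosen by its ratio, that call adds nothing about the list. KDM1B, a lysine demethylase of this group, had 309 counts in the knockout library and 322 in the wild-type library (log2 ratio 0.01). ZCWPW1 (15 and 15 counts) and ZCWPW2 (6 and 6 counts), which hold the domain without the ATPase, were below the filter.

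In the list of the HUSH complex and partners of MORC2, 0 of 9 expressed members were called, and the median log2 ratio was -0.04. TASOR, the HUSH scaffold, had 1136 counts in the knockout library and 864 in the wild-type library, a log2 ratio of 0.47 (0.34 to 0.60). The H3K9 methyltransferase SETDB1 had 0.18 and its partner ATF7IP 0.26, while ATF7IP2 had -0.51 from 60 and 90 counts. Among genes of PML nuclear bodies, where MORC3 is found, 0 of 15 were called and the median was 0.0064. The kinase HIPK2 lay farthest from 0 with a log2 ratio of 0.75 (931 and 584 counts). SP100, a core protein of these bodies, had -0.37, its relative SP140L 0.33 and the chromatin remodeller ATRX 0.31.

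Of 12 expressed genes of HP1 proteins, H3K9 methylation and DNA methylation, 0 were called and the median was 0.08. CBX5, which encodes HP1 alpha, had a log2 ratio of 0.62 (2669 counts in the knockout library and 1828 in the wild-type library) and the maintenance methyltransferase DNMT1 0.38 (5355 and 4329 counts). DNMT3B, a de novo DNA methyltransferase, had -0.54 (481 and 737 counts) and SETDB2 0.45. LRIF1, which binds SMCHD1 and HP1, had 282 and 342 counts (-0.20). Of 6 expressed SMC ATPases, which share the hinge domain with SMCHD1, 0 were called. The cohesin subunit SMC3 had -0.42, the SMC5/6 subunits SMC5 0.23 and SMC6 -0.08, and the condensin subunit SMC4 0.20.

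The list of H3K4 methylation, the mark that the CW domains of MORC3 and MORC4 bind, had 1 called member of 16. KDM5A, a demethylase of this mark, had 586 counts in the knockout library and 1239 in the wild-type library, a log2 ratio of -1.01 (-1.15 to -0.86). With total-count scaling its log2 ratio was -0.93 and it was not called. The writers SETD1B (0.55), KMT2B (0.55) and KMT2D (0.47) and the shared subunit ASH2L (0.48) lay above 0 without being called. The other shared subunits, WDR5 (-0.07), RBBP5 (-0.13) and DPY30 (-0.04), lay below 0. The median of this list was 0.15, with 11 of 16 members above 0, beside 6600 of all 12886 expressed genes.

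The other GHKL ATPases, which share the ATP-binding fold, had 0 of 14 expressed members called and a median of -0.07. The pyruvate dehydrogenase kinases PDK3 (-0.70, 94 counts in the knockout library and 161 in the wild-type library) and PDK1 (-0.39) lay farthest from 0, and the mismatch repair gene PMS1 had -0.24. In the list of the piRNA pathway and germline silencing, the setting in which MORC1 is known from mice, 1 of 14 genes was expressed. This was SPOCD1 with 66 counts in the knockout library and 67 in the wild-type library. Of 10 target genes of DUX4, which SMCHD1 represses, 9 had 0 counts in the knockout library and 8 in the wild-type library. KHDC1L was called lower with 9.89 and 59.0 expected counts (log2 ratio -2.43, -3.62 to -1.51), and its fractional count in the knockout library means that some of its reads also matched elsewhere. Its level was 0.313 CPM in the knockout library and 1.75 CPM in the wild-type library, so it too passed the filter only through the library in which it was high.

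**Figure D4:**
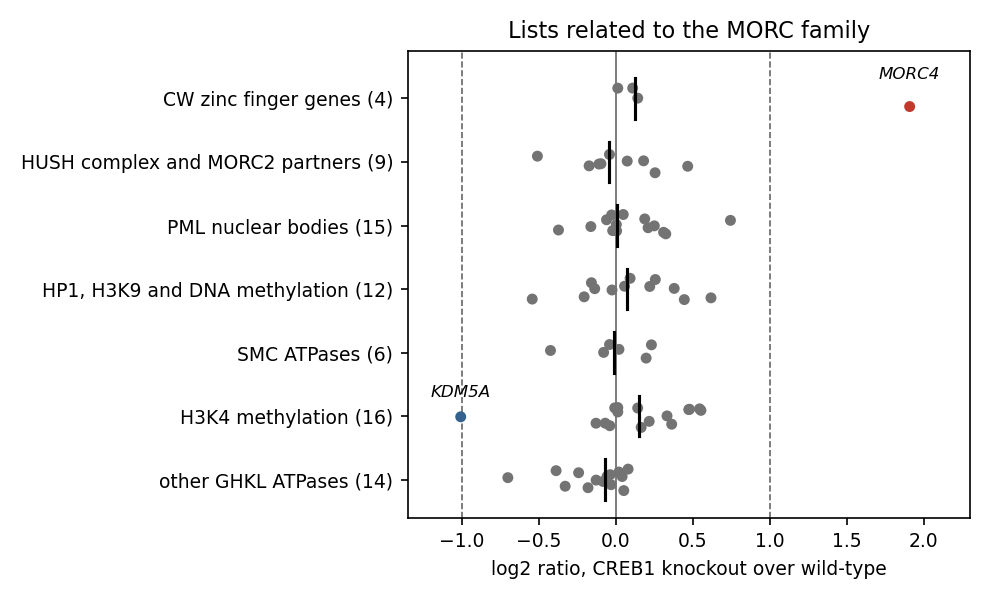
Log2 ratios of knockout over wild-type for the expressed members of 7 lists (number of expressed members in brackets), each point a gene, with the list median as a vertical bar and 2-fold as dashed lines; vertical scatter within a list is arbitrary. MORC4 (1.91), which was chosen by its ratio, and KDM5A (-1.01) are the points past 2-fold, and the medians lie between -0.07 and 0.15.

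The expressed protein-coding genes with a mean of at least 5 CPM whose log2 ratio was nearest to that of MORC4 were found by absolute difference. This likeness rests on 1 ratio from 2 libraries. They were LONRF2 (1.88, difference 0.03), CEMIP (1.96, 0.05), VIM (1.85, 0.06) and JAG1 (1.84, 0.07). LONRF2 (4.13 CPM in the wild-type library) and VIM (2.73 CPM) passed that filter only through the knockout library, in which they were high. LONRF2 had 487 counts in the knockout library and 139 in the wild-type library, and JAG1, a Notch ligand, had 6655 and 1956. None of the 4 lies on the X chromosome.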

How the data were processed

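The authors deposited 1 table of expected counts for both libraries, fractional where reads match several genes, and not scaled between libraries. The build (hg19) and the tools, RSEM 1.2.26, STAR 2.4.2a and cutadapt 2.0, come from the submitters' processing notes. Per the labels' protocols, ribosomal RNA was removed with Ribo-Zero and stranded libraries were sequenced on paired ends. Neither the annotation release nor the strand setting is given in these sources.

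Gene names, order and lengths came from GENCODE 29 (GRCh38), which matched 52338 of 57820 identifiers (90.5%). Identifiers without a match held 35.2% of knockout and 37.0% of wild-type counts. They stayed in library totals but have no length. Counts were rounded and scaled with TMM in edgeR 4.0.16 (R 4.3.3). Log2 ratios used a prior count of 0.5, and intervals are Clopper-Pearson for ratios and Poisson for levels. They treat read pairs as independent molecules. With 1 library per genotype no p-value was computed.

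The members and lists were chosen with earlier results of these data known. Of 126 list entries, 2 matched no identifier (UHRF1 and PECAM1). Named were the members, CREB1, called list members and up to 4 others farthest from 0, except in the lists of cell markers. Also named were the 10 neighbours of MORC4, the genes overlapping it, the antisense gene of MORC2 and the 4 genes nearest in ratio. A gene that this rule names is not reported here. Genes named outside this rule are LRIF1, WDR5, RBBP5, DPY30, ZCWPW1 and ZCWPW2, the cell markers and those said to be named after their values were seen. The alternatives were total-count, DESeq2 1.42.0 and protein-coding TMM scaling, a prior count of 2, unrounded counts, other CPM filters, a 1.5-fold threshold and other lengths.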

Additional observations from a re-analysis of the deposited data

How the results depend on the processing

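Under total-count scaling, DESeq2 size factors, TMM on protein-coding genes, a prior count of 2 and unrounded counts, the log2 ratio of MORC4 ranged from 1.89 to 1.98, that of SMCHD1 from 0.17 to 0.26, of MORC2 from 0.12 to 0.22, of MORC3 from 0.09 to 0.18 and of CREB1 from -0.25 to -0.15. MORC4 was the 1 called member in each of these and under the other CPM filters. The neighbours RNF128 (-1.15 to -1.06), TBC1D8B (-1.52 to -1.43) and CLDN2 (2.29 to 2.42) stayed beyond 2-fold in these 5 settings, but with a mean CPM of at least 5 they were not tested and 0 neighbours were called. The number of called genes was 376, of which 43.9% were higher, and with total-count scaling it was 368, of which 54.6% were higher. It was 1086 without a CPM filter, 137 at a mean CPM of at least 5 (54.7% higher) and 1386 at 1.5-fold. Called X-linked genes numbered 12, against 27 without a filter and 3 at a mean CPM of at least 5. With total-count scaling 0 genes of the H3K4 methylation list were called, at a mean CPM of at least 5 the DUX4 list had 0, and without a filter 1 blood cell marker, CD68 (1.40 and 32.7 expected counts), was called lower. The share of MORC4 in the family was 62.6% in the knockout library and 33.2% in the wild-type library with all exons merged, and 63.0% and 33.6% with coding length, where the wild-type intervals of MORC4 (17.2 to 19.6) and SMCHD1 (19.6 to 21.3) met at their ends. No paired analysis was possible because each genotype has 1 library, and for the same reason no library could be left out. Depth limits MORC1, at 0 counts, and MORC2, whose interval runs from -0.09 to 0.38.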

Other observations

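The surroundings of the other members were compared in the same way, and the called genes are named here after their values were seen. Of the 10 nearest expressed protein-coding genes around MORC1, which itself had 0 counts, 2 were called lower in the knockout library. Of all expressed genes on chromosome 3, 3.12% were called in either direction. ZBED2, a zinc finger gene, had 97 counts in the knockout library and 1119 in the wild-type library (log2 ratio -3.45), and PLCXD2 had 214 and 451 counts. The ratio of PLCXD2 lay barely past 2-fold, so its call depends on the scaling. Total-count scaling raises all log2 ratios by 0.073, which brings PLCXD2 inside 2-fold. Among the neighbours of MORC2 on chromosome 22, where 3.6% were called, 1 was called higher, the vitamin B12 carrier gene TCN2 with 190 and 88 counts (1.18). Among those of MORC3 on chromosome 21, where 5.56% were called, 1 was called higher, the transcription factor gene RUNX1 with 357 and 169 counts (1.15). Around SMCHD1, 0 of 10 were called and the ratios ranged from -0.12 to 0.45. The median log2 ratio over the 10 neighbours was -0.35 for MORC1, 0.08 for MORC2, 0.0019 for MORC3 and 0.09 for SMCHD1.

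Besides MORC4 and its 3 called neighbours, 8 other X-linked genes were called. SYTL5 (73 counts in the knockout library and 14 in the wild-type library), SRPX2 (112 and 52) and TREX2 (161 and 78.8 expected counts) were higher. The mitochondrial import gene TIMM17B (119 and 341), FAM122B (387 and 1135), ASB9 (35 and 107), LONRF3 (59 and 143) and the glycerol kinase gene GK (30 and 74.8 expected counts) were lower. SYTL5 (0.416 CPM in the wild-type library) and GK (0.938 CPM in the knockout library) were below the filter in the library in which they were low. At a mean CPM of at least 5, 3 X-linked genes were called, MORC4 higher and FAM122B and TIMM17B lower. TIMM17B (3.72 CPM in the knockout library and 10.1 CPM in the wild-type library) passed that filter only through the wild-type library.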
